A study of Homo sapiens with 12 samples.

Results

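The genes of the SR proteins, the hnRNPs, the subunits of splicing factor 3 and the CLK kinases were followed in a human pancreatic cancer cell line after knockdown of MYOF and after treatment with WJ460. Members were taken by gene symbol. They were the SRSF genes (12), the HNRNP genes without pseudogenes (25), the SF3A and SF3B genes (9) and CLK1, CLK2, CLK3 and CLK4, which made 50 of the 60617 genes in the table. A further 124 HNRNP symbols named pseudogenes and were left out. Of the 50 members, 46 had a mean normalised read count of at least 5 over the libraries and entered the tests. The others were HNRNPCL1 and HNRNPCL3, at no more than 2.09 in any library, and HNRNPCL2 and HNRNPCL4, at 0 in every library.

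RNA was sequenced from 12 libraries of PANC-1, a line derived from a human pancreatic ductal adenocarcinoma, in 4 groups of 3, all labelled 48 h. The siMYOF group was transfected with a single siRNA directed at MYOF, which encodes the membrane protein myoferlin, and the siGL3 group with a control siRNA against luciferase. Per the study's methods, the siRNA cells were collected 48 h after a wash that followed the transfection. The WJ460 group was given 50 nM of WJ460, which the study used as a myoferlin inhibitor, and the DMSO group its solvent. Replicate 1 of siMYOF and of siGL3 carries the label of an early batch, and the other 10 libraries that of a late batch. No source used here states that the WJ460 and DMSO libraries came from separate cultures, so that their p-values cover no more than library-to-library spread, possibly technical.

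SR proteins bind exonic enhancers through RNA recognition motifs and recruit the spliceosome through a domain rich in arginine and serine. The CLK kinases phosphorylate this domain in the nucleus and release SR proteins from nuclear speckles. hnRNPs coat nascent transcripts and often repress the exons they bind, while the SF3A and SF3B complexes belong to the U2 snRNP, the particle that recognises the branch point. Many SR protein and hnRNP genes limit their own level by splicing in an exon or intron that sends the transcript to nonsense-mediated decay or keeps it in the nucleus. The values here are counts per gene, which do not separate such transcripts from the productive ones.

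The libraries held between 12335147 and 19847210 reads. MYOF itself stood at 3470, 2372 and 2003 normalised counts in siMYOF libraries, against 12786, 20169 and 17823 in siGL3 libraries. The early and late siRNA libraries stood far apart, with a mean chi-square per gene of 45.8 to 72.9 between them, against 4.26 and 8.25 between the late libraries of a group. WJ460 replicate 1 stood further from the other WJ460 libraries (12.0 and 11.6) than these did from each other (3.58). Mitochondrially encoded genes took 3.88% to 5.06% of reads in WJ460 libraries, each above the DMSO libraries (median 2.99%), and 2.90% to 4.72% in siMYOF libraries, against 2.84% to 3.81% in siGL3 libraries. Of the ductal epithelial markers, 7 of 7 were above 0 in every library (summed level 15151 to 28676 in siMYOF, 11429 to 24625 in siGL3, 30443 to 39239 in WJ460 and 25432 to 26373 in DMSO). KRT18 and KRT8 made up most of each sum. KRT7 reached no more than 8.83 and CDH1 no more than 16.9, each below the fibroblast marker PDGFRB (13.6 to 76.8) in every library. EPCAM lay between 36.4 and 86.8. The summed levels of fibroblast markers were at most 84.7, of leukocyte markers at most 25.0, of endothelial markers at most 4.49 and of acinar markers at most 2.95, and both islet markers were at 0. The part of the batch, of mitochondrial reads and of these markers in the results that follow was not tested.

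Knockdown of MYOF left more of these genes higher than lower. Of the 46 tested members, 26 rose, 6 fell and 14 did not pass the threshold, a limma adjusted p under 0.05 over all 14720 genes tested. The 32 called members were 69.6% of those tested, against 53.9% of all genes, and the share called higher over all genes was 28.0% and that called lower 25.9%. The median log2 fold change of the members was 0.20, against 0.01 for all genes. In the early pair it was 0.24, and late libraries alone gave 0.18, with 21 members higher and 6 lower. Each of the 32 called members had 1 sign in both batches, and 26 of them also passed with the early pair left out. The calls rest on both batches, so that this shared sign is no independent support. The like share over all called genes was not taken. Scaling by total reads moved the median of all genes by -0.11 and gave 20 higher and 9 lower members with a median of 0.09. Over all genes that scaling called 3189 higher and 4757 lower. Of the called members 69.0% were then higher, against 40.1% of all called genes. The rises of SRSF1, SRSF9, SRSF10, HNRNPL, HNRNPAB and SF3B2 did not pass under that scaling (0.03 to 0.11), while HNRNPH3 (-0.23), HNRNPU (-0.17) and HNRNPM (-0.13) were called lower. By family, 3 CLK genes rose and 1 fell, 8 of 12 SR protein genes rose and none fell, 12 of 21 hnRNP genes rose and 1 fell, and 3 of 9 SF3 genes rose while 4 fell.

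WJ460 gave a similar balance from a partly different set of members. Of the 46 members, 28 rose, 5 fell and 13 did not pass, which made 71.7% called, against 52.9% of all genes (27.3% higher and 25.6% lower). The median log2 fold change was 0.21, against 0.00 for all genes. Scaling by total reads shifted all genes by -0.15, which left 18 members higher and 11 lower with a median of 0.05. Over all genes that scaling called 2639 higher and 5195 lower. Of the called members 62.1% were then higher, against 33.7% of all called genes. The rises of SRSF2, SRSF4, HNRNPA3, HNRNPK, HNRNPL, HNRNPUL2, SF3A2, SF3A3, SF3B2 and SF3B4 did not pass under that scaling (0.0019 to 0.22). It called SRSF9, HNRNPF, HNRNPH2, HNRNPR, HNRNPU and SF3B5 lower (-0.28 to -0.14). By family, 3 CLK genes rose and 1 fell, 5 SR protein genes rose and 1 fell, 14 hnRNP genes rose and 2 fell, and 6 SF3 genes rose and 1 fell. Leaving out 1 library gave 21 to 29 higher and 4 to 5 lower members, with 21 higher without DMSO replicate 3 or WJ460 replicate 2 and 29 without WJ460 replicate 1. In bulk RNA, fewer cells with a transcript and less of it per cell cannot be told apart.

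The calls of both comparisons were set side by side, for the members only. Over all genes 53.9% were called with siMYOF and 52.9% with WJ460, but joint calls over all genes were not counted. Whether the joint counts are particular to the members was therefore not tested. Of the members, 18 were higher in both comparisons and 2 lower in both, namely CLK2 and SF3B3. HNRNPA1, SF3A3 and SF3B6 fell with siMYOF and rose with WJ460, while HNRNPUL1 and SRSF1 rose with siMYOF and fell with WJ460. Each direction is against the control of that treatment, and the controls differed. In the late siGL3 libraries HNRNPA1, SF3A3 and SF3B6 lay above every DMSO library, and HNRNPUL1 and SRSF1 below. With siMYOF alone passing, 6 members rose and SF3B5 fell. With WJ460 alone passing, 7 members rose and HNRNPDL fell. The remaining 6, namely SF3A1, SRSF6, SRSF12, HNRNPA1L2, HNRNPH2 and HNRNPU, passed in neither.

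**Figure D1:**
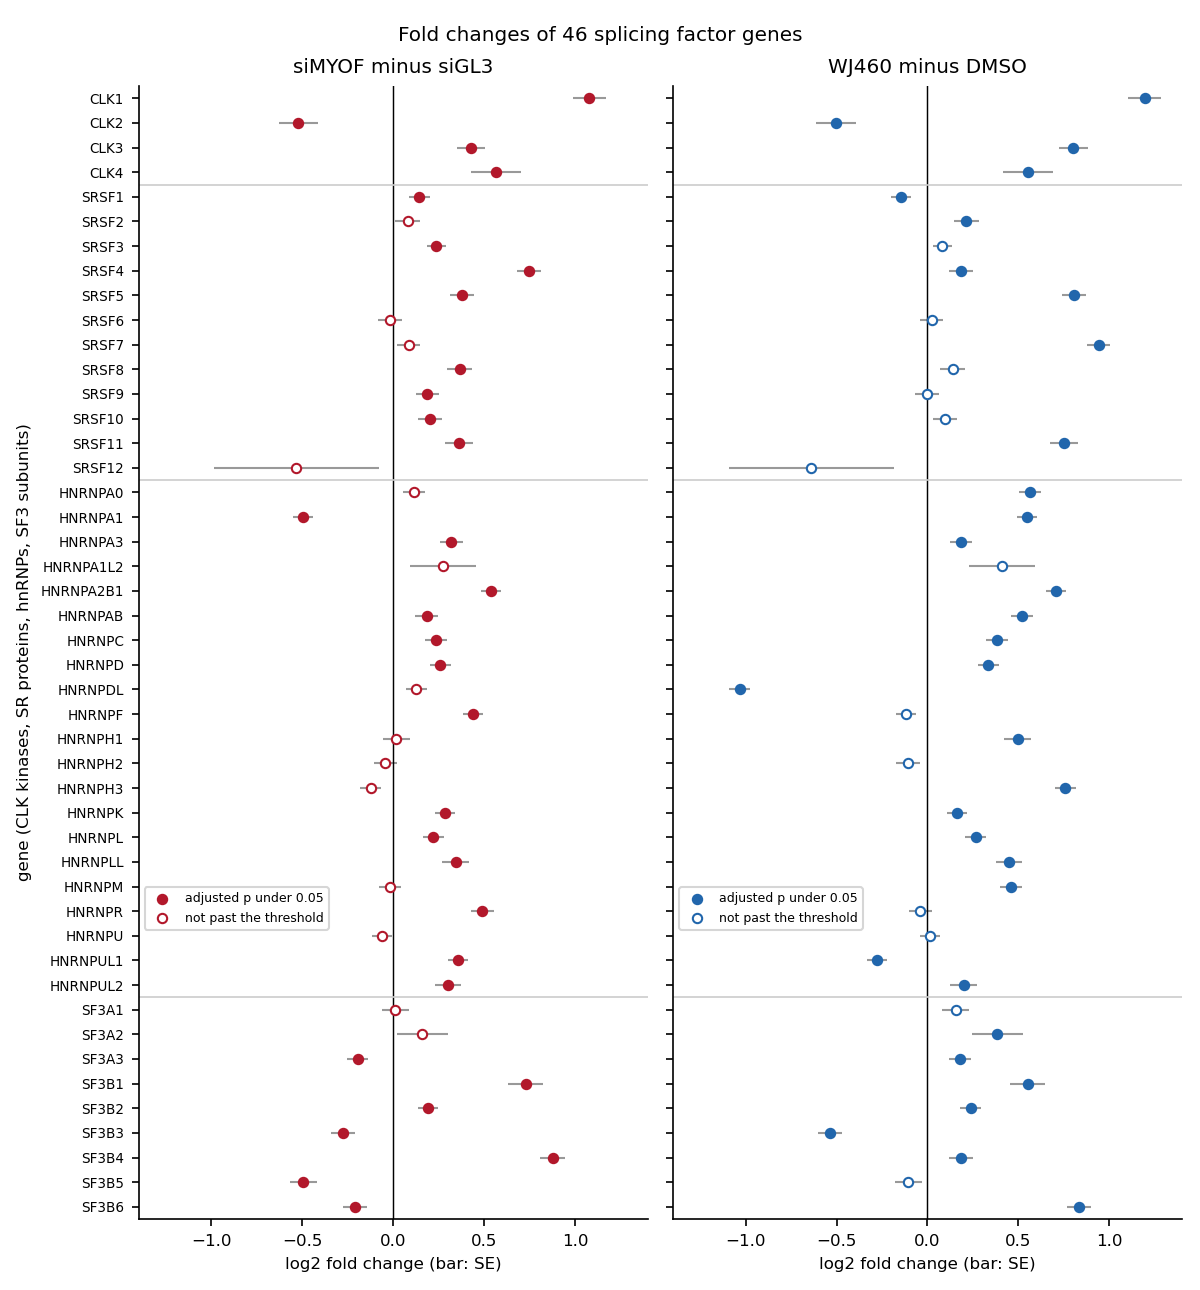
The log2 fold change of each of the 46 tested members is plotted with its standard error, for siMYOF against siGL3 on the left and WJ460 against DMSO on the right. Filled points passed a limma adjusted p under 0.05 and open points did not. CLK1 lies above 1 on both sides, CLK2 near -0.5 on both, and HNRNPDL and HNRNPA1 differ most between the panels together with SF3B6.

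The CLK genes moved alike in both comparisons. CLK1, a kinase whose own transcript is partly held in the nucleus with retained introns, had 1270, 602 and 588 normalised counts in siMYOF libraries, against 667, 247 and 287 in siGL3 libraries. Within each batch siMYOF was the higher, but the early siGL3 library lay above both late siMYOF libraries. The log2 fold change was 1.08 (SE 0.09, limma adjusted p = 1.51e-08), with 0.93 between the early libraries and 1.16 between the late ones. WJ460 gave 743, 867 and 924 counts, against 363, 362 and 376 with DMSO. These groups did not overlap, and the log2 fold change was 1.19 (SE 0.09, adjusted p = 6.34e-09), a 2.29-fold rise.

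CLK2, the family member on chromosome 1 next to HCN3, went the other way. Its counts were 339, 135 and 138 in siMYOF libraries, against 480, 211 and 185 in siGL3 libraries, and siMYOF was lower within each batch. Its log2 change was -0.52 (SE 0.11, adjusted p = 0.00048; early pair -0.50, late libraries -0.53). With WJ460 it had 167, 191 and 205 counts, against 266, 284 and 249 with DMSO. Every WJ460 library was below every DMSO library, and CLK2 fell by 0.50 (SE 0.11, adjusted p = 0.000699). The annotated spans of CLK2 and HCN3, which lie on opposite strands, overlap over 1029 bases but share 0 exon bases.

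CLK3, a kinase with highest known levels in testis, had 875, 662 and 716 counts with siMYOF, against 579, 528 and 557 with siGL3. The groups did not overlap, and the log2 fold change was 0.43 (SE 0.08, adjusted p = 0.00014; early pair 0.59, late libraries 0.34). In WJ460 libraries it had 877, 972 and 979 counts, against 528, 539 and 552 with DMSO, again without overlap (log2 fold change 0.80, SE 0.08, adjusted p = 1.16e-07). It was the only CLK gene whose effects differed past the threshold (siMYOF effect minus WJ460 effect -0.38, adjusted p = 0.00881). The annotated exons of EDC3, on the opposite strand, share 701 bases with those of CLK3, and whether reads were counted by strand is not given in the sources used here. Exon bases were likewise shared with a coding gene on the opposite strand in 11 of the 46 tested members, CLK3 included, over the longest stretches in HNRNPA3 (3509 bases) and HNRNPU (3502), and with one on the same strand in 5.

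CLK4, the closest relative of CLK1, had 304, 174 and 160 counts with siMYOF, against 210, 115 and 107 with siGL3. As for CLK1, the early siGL3 library exceeded the late siMYOF libraries, while siMYOF was higher within each batch (log2 fold change 0.57, SE 0.14, adjusted p = 0.00173). WJ460 gave 155, 225 and 221 counts, against 138, 125 and 142 with DMSO. WJ460 replicate 1 was the lowest of its group but still above every DMSO library, and the log2 fold change was 0.55 (SE 0.14, adjusted p = 0.0022). The calls of CLK2 and CLK4 were lost in both comparisons when the batch was left out of the fit (adjusted p 0.138 to 0.326), while those of CLK1 and CLK3 held.

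**Figure D2:**
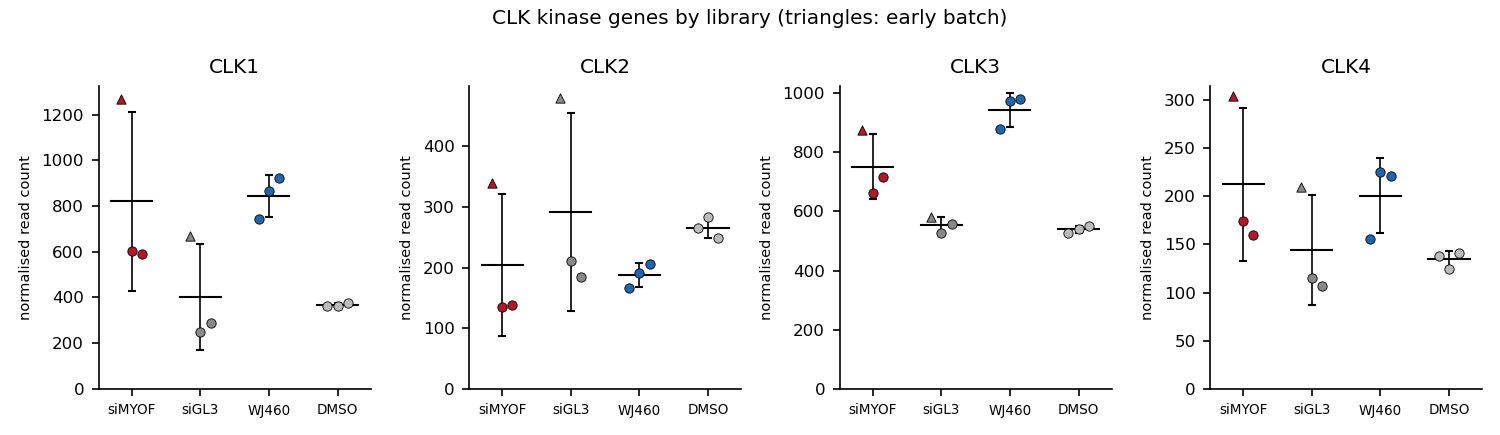
Normalised read counts of the CLK genes are shown for each library, with the group mean and SD. Triangles mark the early batch. CLK1, CLK3 and CLK4 were higher and CLK2 lower with siMYOF and with WJ460 than with the control of the same batch.

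The windows around the annotated starts of these genes are shown because CLK1, CLK3 and CLK4 rose together while CLK2 fell. They come from RefSeq on GRCh38.p14, and capitals mark the half-site TGACG of the cyclic AMP response element (written CGTCA where it lies on the other strand) and the E-box CACGTG. The windows are chr2:200864609-200864908 on the minus strand for CLK1, chr15:74615586-74615885 on the plus strand for CLK3, chr5:178627001-178627300 on the minus strand for CLK4 and chr1:155273455-155273754 on the minus strand for CLK2.
CLK1: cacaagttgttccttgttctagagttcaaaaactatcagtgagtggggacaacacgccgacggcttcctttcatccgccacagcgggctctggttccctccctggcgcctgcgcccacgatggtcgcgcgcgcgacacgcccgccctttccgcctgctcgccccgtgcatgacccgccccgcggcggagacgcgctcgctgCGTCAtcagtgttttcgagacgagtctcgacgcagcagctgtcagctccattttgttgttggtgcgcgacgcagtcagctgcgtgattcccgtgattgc
CLK3: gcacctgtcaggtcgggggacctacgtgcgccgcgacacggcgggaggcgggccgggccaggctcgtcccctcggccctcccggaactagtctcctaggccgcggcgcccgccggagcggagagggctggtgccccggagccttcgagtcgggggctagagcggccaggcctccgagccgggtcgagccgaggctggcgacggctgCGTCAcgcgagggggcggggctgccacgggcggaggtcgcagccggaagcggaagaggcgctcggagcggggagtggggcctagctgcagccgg
CLK4: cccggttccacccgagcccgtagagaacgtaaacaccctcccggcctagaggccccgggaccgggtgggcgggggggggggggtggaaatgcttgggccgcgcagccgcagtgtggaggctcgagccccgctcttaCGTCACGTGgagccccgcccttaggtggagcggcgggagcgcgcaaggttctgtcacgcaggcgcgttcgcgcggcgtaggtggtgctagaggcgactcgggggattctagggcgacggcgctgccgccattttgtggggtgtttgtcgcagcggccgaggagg
CLK2: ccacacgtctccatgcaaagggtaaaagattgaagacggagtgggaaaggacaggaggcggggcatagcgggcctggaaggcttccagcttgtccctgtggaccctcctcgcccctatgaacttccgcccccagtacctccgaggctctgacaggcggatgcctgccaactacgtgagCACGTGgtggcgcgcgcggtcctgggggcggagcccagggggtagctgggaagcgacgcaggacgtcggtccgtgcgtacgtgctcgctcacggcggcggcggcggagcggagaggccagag
The windows of CLK1, CLK3 and CLK4 hold the half-site, which the CLK2 window does not, and CLK2 and CLK4 hold the E-box. In CLK4 the motifs share bases. A second CLK1 window overlaps the one shown and contains the same half-site, and a second CLK3 window holds neither motif. Promoter windows were found for 46 of 50 members, 63 windows in all, some of which overlap. The half-site lay in 28 of them (44.4%), against 24.6% of 35116 windows over all genes, and the E-box in 12 (19.0%), against 7.26%. The full element TGACGTCA was in 0 of 63 member windows and in 1.85% of all windows. Other motifs were scanned but not marked. The GC box was in 61.9% of member windows, against 45.0% of all windows, ETS in 19.0%, against 10.3%, and CCAAT in 41.3%, against 34.6%. YY1 was in 6.35%, against 5.84%, TATA in 9.52%, against 11.5%, and AP-1 in 1.59%, against 4.95%. The half-site did not separate all members by direction. SF3B5 and SF3B6, lower with siMYOF, had it, while SF3B4 and SRSF4, higher with siMYOF, did not. A match of letters is a description of the sequence and not a site of binding. Whether these motifs had a part in the changes was not tested, and genes picked for their direction could not decide it.

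Among the SR proteins, siMYOF raised SRSF4 most. SRSF4, one of the larger SR proteins, had 2840, 2663 and 2456 counts with siMYOF, against 1591, 1519 and 1632 with siGL3. The groups were fully apart (log2 fold change 0.75, SE 0.07, adjusted p = 2.66e-08; early pair 0.84, late libraries 0.70). WJ460 libraries held 1692, 1910 and 1859 counts, against 1615, 1584 and 1606 with DMSO, and its log2 value was 0.18 (SE 0.07, adjusted p = 0.0259). The WJ460 call was lost without any 1 of the DMSO libraries or without WJ460 replicate 2 or 3 (adjusted p 0.0559 to 0.109) and with total-read scaling (0.02, adjusted p = 0.768), and the effects differed by 0.56 (adjusted p = 6.44e-05).

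WJ460 in turn raised SRSF7, SRSF5 and SRSF11. SRSF7, an SR protein with a zinc knuckle, had 6027, 6559 and 6843 counts with WJ460, against 3303, 3403 and 3394 with DMSO. All WJ460 libraries were far above the DMSO ones (log2 fold change 0.94, SE 0.06, adjusted p = 1.01e-09). With siMYOF it stood at 4057, 3985 and 3923, against 3720, 3591 and 3982 with siGL3, groups that overlapped (log2 fold change 0.08, SE 0.06, adjusted p = 0.262). SRSF7 thus had the largest difference of effects among the SR protein genes, -0.86 (SE 0.09, adjusted p = 2.72e-07).

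SRSF5, whose transcript is known to respond to insulin and growth stimuli, had 2454, 2459 and 2576 counts with WJ460, against 1457, 1424 and 1401 with DMSO (log2 fold change 0.81, SE 0.06, adjusted p = 1.05e-08). The groups did not overlap. Its counts were 2400, 1312 and 1286 with siMYOF, against 2056, 916 and 976 with siGL3, where the early siGL3 library lay above the late siMYOF ones but siMYOF was higher in each batch. That rise was 0.38 (SE 0.06, adjusted p = 6.37e-05; early pair 0.22, late libraries 0.46).

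SRSF11, a regulator that binds the splicing factor U2AF, had 3010, 3565 and 3759 counts with WJ460, against 2109, 2019 and 1989 with DMSO (log2 fold change 0.75, SE 0.08, adjusted p = 1.98e-07). In siMYOF libraries it had 3733, 2732 and 2553 counts, against 3208, 2011 and 1894 in siGL3 libraries (0.36, SE 0.08, adjusted p = 0.000555; early pair 0.22, late libraries 0.44). Both libraries of the early batch were high, and within batches siMYOF lay above siGL3. The effects on SRSF5 and SRSF11 differed by -0.43 and -0.39 (adjusted p 0.000767 and 0.00625).

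The remaining SR protein genes changed less. SRSF8, an expressed retrocopy of SRSF2, had a log2 fold change of 0.37 with siMYOF, and SRSF3, the smallest SR protein, one of 0.24, both called (early pair 0.31 and 0.27, late libraries 0.39 and 0.22), while neither passed with WJ460 (0.14 and 0.08, adjusted p 0.103 and 0.206). SRSF10, a splicing repressor when dephosphorylated, and SRSF9 rose by 0.20 and 0.19 with siMYOF over all libraries, but both missed the threshold once the early pair was left out (adjusted p 0.073 and 0.233), and SRSF10 also without siMYOF replicate 2 (adjusted p = 0.0563). SRSF2, the speckle protein SC35, rose by 0.21 with WJ460 (adjusted p = 0.0143), a call lost without DMSO replicate 3 (adjusted p = 0.0539) and with total-read scaling (0.05, adjusted p = 0.555). With siMYOF SRSF2 did not pass over all libraries (0.08, early pair -0.18) and passed in the late ones (0.21, adjusted p = 0.00977). SRSF6 did not pass in either comparison (-0.02 and 0.02).

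SRSF1, the founding member of the family, was called in opposite directions, with 0.14 for siMYOF (SE 0.06, adjusted p = 0.0401) and -0.15 for WJ460 (SE 0.06, adjusted p = 0.0377). Both calls lay near the threshold. With the replicate block the siMYOF call was lost (adjusted p = 0.0522), as it was with TMM scaling (0.0527), with edgeR (adjusted p = 0.0611), with no filter on low values (0.0662), in the late libraries (0.107) and without any 1 library of siGL3 other than replicate 2, of siMYOF or of DMSO (adjusted p 0.0535 to 0.106). The WJ460 call was lost without DMSO replicate 1 or 3 or without WJ460 replicate 1 or 3 (adjusted p 0.0734 to 0.123), and with no filter (0.0632). The difference of effects, 0.29, passed (adjusted p = 0.00585) and was lost only when the batch was left out (adjusted p = 0.0946). SRSF12 had between 3.13 and 15.5 counts per library, and its log2 fold changes of -0.53 and -0.64 carried an SE of 0.45 each.

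The paralogs HNRNPA1 and HNRNPA2B1 parted with siMYOF. HNRNPA1, a repressor of exon inclusion that also shuttles mRNA out of the nucleus, had 11609, 11974 and 11762 counts with siMYOF, against 15704, 16632 and 17510 with siGL3. The siMYOF libraries lay close together and below every siGL3 library (log2 fold change -0.49, SE 0.06, adjusted p = 4.81e-07; early pair -0.44, late libraries -0.52). With WJ460 it had 18500, 19798 and 20279 counts, against 13719, 13358 and 13018 with DMSO. Here every treated library was the higher (log2 fold change 0.55, SE 0.06, adjusted p = 1.71e-07), and the effects differed by -1.04 (SE 0.08, adjusted p = 8.44e-09). Reads on the 75 HNRNPA1 pseudogenes came to 0.728% to 1.25% of those on the gene, and adding them changed no call.

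HNRNPA2B1, the gene of the A2 and B1 proteins, which bind and sort RNAs with short purine-rich motifs, rose in both comparisons. It had 44557, 38846 and 36435 counts with siMYOF, against 29976, 26066 and 26349 with siGL3 (log2 fold change 0.54, SE 0.06, adjusted p = 1.67e-07; early pair 0.57, late libraries 0.52). It reached 47831, 52130 and 52379 with WJ460, against 32419, 30694 and 30196 with DMSO (0.71, SE 0.06, adjusted p = 7.93e-09). Neither pair of groups overlapped, and the difference of effects did not pass (-0.17, adjusted p = 0.0839) except with no filter on low values (0.0458) and without WJ460 replicate 1 (adjusted p = 0.0211).

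HNRNPDL, a relative of HNRNPD that keeps its own level down through decay-bound splice forms, fell with WJ460 alone. It had 1679, 1613 and 1596 counts with WJ460, against 3465, 3263 and 3282 with DMSO. The WJ460 libraries were all at about the same low level (log2 fold change -1.03, SE 0.06, adjusted p = 1.68e-10). With siMYOF it had 4224, 2802 and 2689 counts, against 3733, 2627 and 2496 with siGL3, and siMYOF was slightly the higher within each batch without passing (0.13, SE 0.06, adjusted p = 0.0742). The difference of effects of 1.16 (SE 0.08, adjusted p = 4.21e-09) was the largest of any member.

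HNRNPH3, a small member of the HNRNPH group, which binds runs of guanine, had 9247, 10062 and 10022 counts with WJ460, against 6001, 5691 and 5631 with DMSO. The groups were well apart (log2 fold change 0.76, SE 0.06, adjusted p = 5.75e-09). With siMYOF it had 3910, 4753 and 4529 counts, against 4465, 4981 and 4902 with siGL3. These overlapped and did not pass (-0.12, SE 0.06, adjusted p = 0.0768), but passed under scaling by total reads (-0.23, adjusted p = 0.00124) and without WJ460 replicate 1 (adjusted p = 0.0454), and the effects differed by -0.88 (adjusted p = 8.48e-08). HNRNPH1, its larger relative, rose by 0.50 with WJ460 and stood at 0.02 with siMYOF (adjusted p 1.79e-05 and 0.862), with -0.26 between the early libraries and 0.16 between the late ones. HNRNPH2 did not pass in either (-0.04 and -0.11).

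HNRNPF and HNRNPR changed with siMYOF and not past the threshold with WJ460. HNRNPF, which binds the same guanine runs as HNRNPH1, had 9997, 8862 and 8639 counts with siMYOF, against 6940, 6901 and 6413 with siGL3 (log2 fold change 0.44, SE 0.06, adjusted p = 2.25e-06; early pair 0.53, late libraries 0.40). With WJ460 it had 6888, 6944 and 7254 counts, against 7740, 7533 and 7603 with DMSO. Every WJ460 library was below every DMSO library although the test was not passed (-0.12, adjusted p = 0.0836), except under scaling by total reads (-0.28, adjusted p = 0.000119).

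HNRNPR, related to the mRNA editing and transport factor SYNCRIP, had 7820, 6526 and 6237 counts with siMYOF, against 5817, 4695 and 4194 with siGL3 (0.49, SE 0.06, adjusted p = 2.63e-06; early pair 0.43, late libraries 0.52). Each siMYOF library was above each siGL3 library. Its counts were 5300, 6046 and 5853 with WJ460, against 5984, 5822 and 5854 with DMSO, which overlapped (-0.04, adjusted p = 0.615). The effects on HNRNPF and HNRNPR differed by 0.56 and 0.53 (adjusted p 1.17e-05 and 7.46e-05).

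HNRNPUL1, a relative of the scaffold protein HNRNPU, moved in opposite directions. It had 4072, 5837 and 5704 counts with siMYOF, against 3024, 4631 and 4597 with siGL3, and siMYOF was higher within each batch (0.36, SE 0.05, adjusted p = 1.99e-05; early pair 0.43, late libraries 0.32). It had 3895, 4110 and 4089 counts with WJ460, against 4808, 4957 and 4868 with DMSO (-0.28, SE 0.05, adjusted p = 0.000339). These groups did not overlap, and the effects differed by 0.63 (adjusted p = 2.26e-06). Without the batch term in the fit, both calls and the difference were lost (adjusted p 0.109, 0.22 and 0.0587).

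Of the other hnRNP genes, 8 rose in both comparisons. They were HNRNPLL (0.34 with siMYOF and 0.45 with WJ460), a regulator known for CD45 splicing in T cells, HNRNPA3 (0.32 and 0.19), HNRNPUL2 (0.30 and 0.20), the poly(C)-binding HNRNPK (0.29 and 0.16), the mRNA decay factor HNRNPD (0.26 and 0.33), HNRNPC (0.23 and 0.38), which binds uridine runs, HNRNPL (0.22 and 0.26), which binds CA repeats, and HNRNPAB (0.18 and 0.52). With siMYOF their early pair values lay between 0.20 and 0.44 and their late values between 0.15 and 0.37. Under scaling by total reads the WJ460 values of HNRNPK (0.0019), HNRNPA3 (0.03), HNRNPUL2 (0.04) and HNRNPL (0.10) did not pass (adjusted p 0.0866 to 0.978), nor did the siMYOF values of HNRNPL and HNRNPAB (adjusted p 0.0686 and 0.289). With WJ460 the calls of HNRNPA3, HNRNPK and HNRNPUL2 were lost without DMSO replicate 2 or 3 or without WJ460 replicate 2, and that of HNRNPA3 also without WJ460 replicate 3 (adjusted p 0.0533 to 0.143). With siMYOF those of HNRNPL and HNRNPAB were lost in the late libraries (adjusted p 0.0581 and 0.0606), and that of HNRNPAB without siGL3 replicate 2 (adjusted p = 0.134). HNRNPA0 (0.56) and HNRNPM (0.46) rose with WJ460 and did not pass with siMYOF (0.11 and -0.02). HNRNPU, a nuclear scaffold protein, stood at -0.06 and 0.02 and HNRNPA1L2, an HNRNPA1 retrocopy with 33.9 to 66.4 counts per library, at 0.27 and 0.41, none of which passed. Scaling by total reads called HNRNPU lower in both (-0.17 and -0.14, adjusted p 0.00595 and 0.0179).

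**Figure D3:**
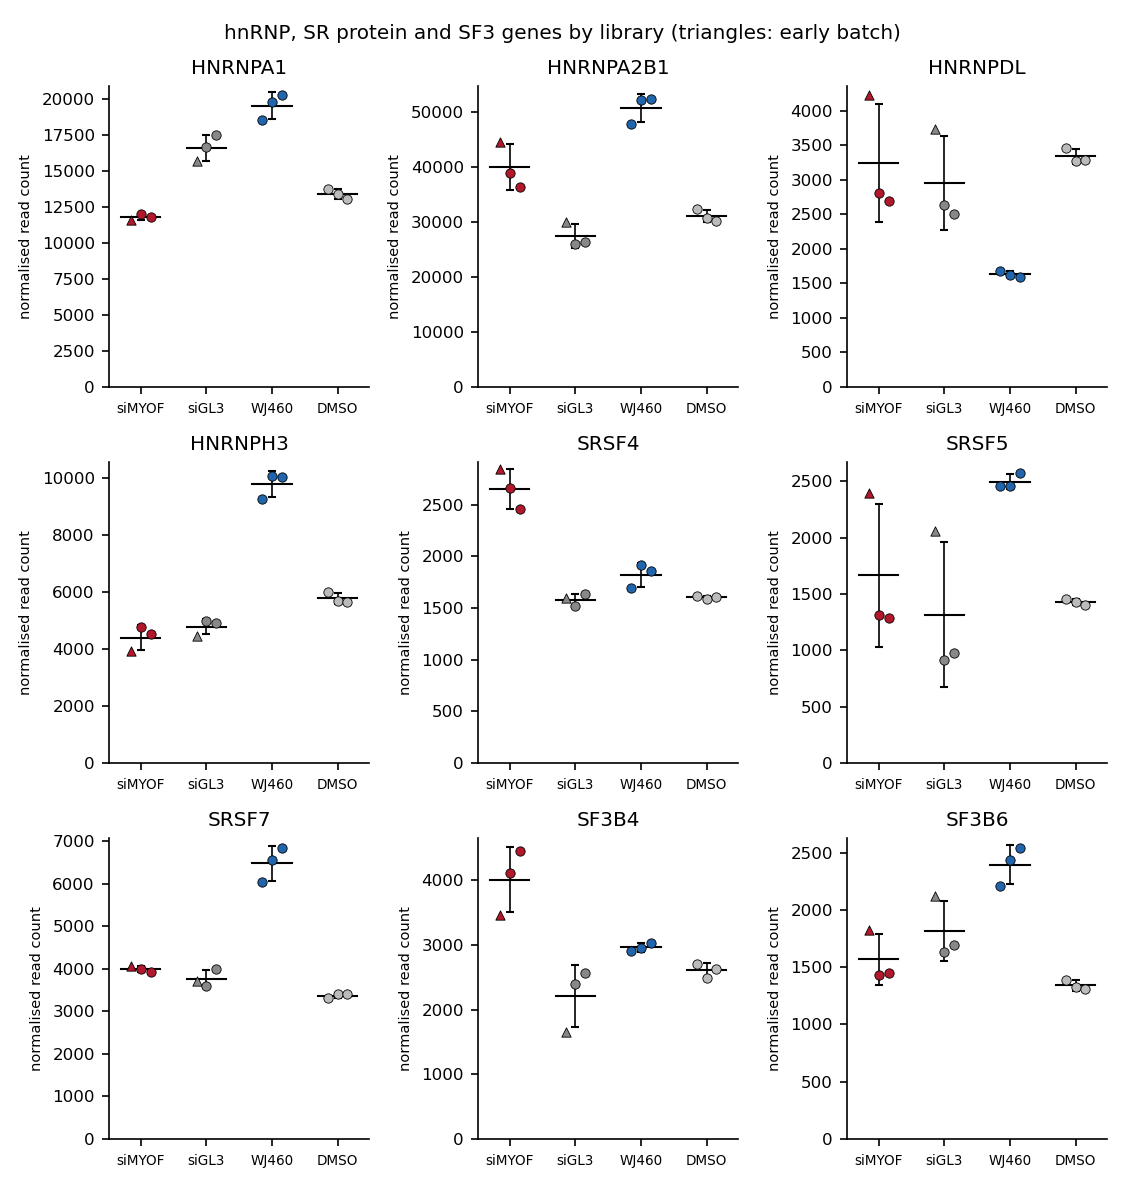
Normalised read counts of the SR protein, hnRNP and SF3 genes with large changes are shown per library, with the group mean and SD, and triangles mark the early batch. HNRNPDL is lowest in the WJ460 libraries, HNRNPA1 lowest in the siMYOF libraries, and SRSF4 and SF3B4 highest in the siMYOF libraries.

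The SF3 genes split with siMYOF. SF3B4, the subunit that contacts RNA upstream of the branch point, had 3465, 4116 and 4447 counts with siMYOF, against 1660, 2402 and 2566 with siGL3. The groups did not overlap (log2 fold change 0.88, SE 0.07, adjusted p = 4.01e-09; early pair 1.06, late libraries 0.78). Counts with WJ460 were 2898, 2952 and 3034, against 2698, 2493 and 2633 with DMSO (0.18, SE 0.07, adjusted p = 0.027), a call lost without DMSO replicate 2 or 3 or WJ460 replicate 2 or 3 (adjusted p 0.0545 to 0.122) and with total-read scaling (0.02, adjusted p = 0.76). The effects differed by 0.69 (adjusted p = 7.74e-06).

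SF3B1, the largest subunit, recurrently mutated in leukaemia and melanoma, had 10213, 10920 and 10117 counts with siMYOF, against 8102, 5897 and 5179 with siGL3 (0.73, SE 0.10, adjusted p = 1.05e-05). The rise was 0.33 between the early libraries and 0.93 between the late ones, and siMYOF libraries were all above siGL3 libraries. With WJ460 it had 9081, 10618 and 10289 counts, against 6827, 6775 and 6815 with DMSO (0.55, SE 0.10, adjusted p = 0.000182). The difference of effects did not pass over all libraries (0.18, adjusted p = 0.306) but passed in the late ones (0.38, adjusted p = 0.00637).

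SF3B5 and SF3B6 are the small subunits of the complex. SF3B5 had 486, 504 and 517 counts with siMYOF, against 629, 770 and 732 with siGL3, without overlap (-0.49, SE 0.07, adjusted p = 1.56e-05; early pair -0.37, late libraries -0.56). It had 883, 814 and 900 counts with WJ460, against 954, 952 and 888 with DMSO, which overlapped (-0.11, adjusted p = 0.241). SF3B6, which contacts the branch point adenosine, had 2205, 2435 and 2539 counts with WJ460, against 1391, 1324 and 1306 with DMSO, and the WJ460 libraries were all higher (0.83, SE 0.06, adjusted p = 6.78e-09). Its counts were 1827, 1431 and 1449 with siMYOF, against 2118, 1632 and 1696 with siGL3, lower within each batch (-0.21, SE 0.06, adjusted p = 0.00987). The effects on SF3B6 differed by -1.04 (SE 0.09, adjusted p = 4.51e-08). Its siGL3 level lay above DMSO (0.31, adjusted p = 0.00187), and the late siMYOF libraries stayed above every DMSO library.

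SF3B3, a large scaffold of the complex, fell in both comparisons, by 0.27 with siMYOF (adjusted p = 0.00176) and by 0.53 with WJ460 (adjusted p = 1.93e-06). Between the early libraries siMYOF gave -0.16, and between the late ones -0.33. Its difference of effects, 0.26 (adjusted p = 0.028), was lost without any 1 of 6 libraries (adjusted p 0.0564 to 0.107), namely siGL3 replicate 1 or 3, siMYOF replicate 1 or 2, DMSO replicate 1 and WJ460 replicate 3. Without siGL3 replicate 1 or siMYOF replicate 1 it was 0.20, the value of the late libraries alone, so that these losses are not separate. SF3B2 rose by 0.19 and 0.24, although its siMYOF call was lost in the late libraries (adjusted p = 0.0693) and both calls under scaling by total reads (0.08 each, adjusted p 0.155 and 0.175). SF3A3 fell by 0.20 with siMYOF (adjusted p = 0.00987; early pair -0.10, late libraries -0.24) and rose by 0.18 with WJ460 (adjusted p = 0.0166). The siMYOF call of SF3A3 was lost without siMYOF replicate 3 (adjusted p = 0.0618) and the WJ460 call without DMSO replicate 2 or 3 or WJ460 replicate 2 or 3 (adjusted p 0.055 to 0.0855) or with total-read scaling (0.02, adjusted p = 0.761). SF3A2 had 0.16 with siMYOF (adjusted p = 0.362; early pair 0.49, late libraries -0.01) and 0.38 with WJ460 (adjusted p = 0.0321). The WJ460 call of SF3A2 was lost without DMSO replicate 1 or WJ460 replicate 2 or 3 (adjusted p 0.0999 to 0.124) or with total-read scaling (adjusted p = 0.165), and the siMYOF value passed without siGL3 replicate 3 (0.35, adjusted p = 0.0169). SF3A1 did not pass with siMYOF (0.01) or with WJ460 (0.16, adjusted p = 0.0849), but with WJ460 it passed without WJ460 replicate 1 (0.24, adjusted p = 0.00773).

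The test of the difference between the knockdown effect and the WJ460 effect called 21 members, 8 with the higher knockdown effect and 13 with the lower, while 25 did not pass. This was 45.7% of the members, against 48.2% of all genes (24.2% with the higher knockdown effect and 24.0% with the lower). The 8 were HNRNPDL, SF3B4, HNRNPUL1, SRSF4, HNRNPF, HNRNPR, SRSF1 and SF3B3. The 13 were HNRNPA1, SF3B6, HNRNPH3, SRSF7, HNRNPH1, HNRNPM, HNRNPA0, SRSF5, SRSF11, SF3B5, SF3A3, CLK3 and HNRNPAB, with differences between -1.04 and -0.34. Scaling by total reads gave 13 members in each direction, and over all genes 3864 with the higher knockdown effect and 3223 with the lower.

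The control transfection was set against the solvent to see how far the reference groups of both comparisons already differed. Of the members, 4 were higher and 15 lower in siGL3 than in DMSO, or 41.3% called, against 32.1% of all genes (16.1% higher and 16.0% lower). These groups differ in handling as well as in transfection, and such causes cannot be told apart. SRSF5 had 2056, 916 and 976 counts in siGL3 libraries, against 1457, 1424 and 1401 in DMSO libraries. The early siGL3 library lay above and the late ones below DMSO, and the fit with the batch term gave -0.55 (adjusted p = 9.74e-06).

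HNRNPH1 had 8287, 4833 and 4453 counts with siGL3, against 7653, 7307 and 7365 with DMSO (-0.61, SE 0.08, adjusted p = 1.58e-05), again with the early library above DMSO. For HNRNPDL, with counts given above, siGL3 minus DMSO was -0.39 (adjusted p = 0.000102), and for HNRNPR -0.39 (adjusted p = 0.000243). Of the 4 members that were higher with siGL3, HNRNPA1 had 0.34 and SF3B6 0.31 (adjusted p 0.000265 and 0.00187). The other two, SF3B2 (0.18, adjusted p = 0.0312) and HNRNPAB (0.18, adjusted p = 0.0475), were both lost without siGL3 replicate 3 or any 1 DMSO library. Both were also lost with total-read scaling (adjusted p 0.104 and 0.176) and without the batch term, and SF3B2 without siGL3 replicate 2 (0.102). HNRNPAB was lost as well with TMM scaling (0.0708), with no filter (0.0629) and in the late libraries (0.0501). The same held for HNRNPAB without any 1 siMYOF library or without WJ460 replicate 2 or 3. CLK1 and CLK2 were lower with siGL3 by the fit with batch (-0.42 and -0.43, adjusted p 0.00279 and 0.00817), although CLK2 did not pass without siGL3 replicate 3 (adjusted p = 0.0543). Without the batch term CLK1 had -0.02 and CLK2 0.0010 (adjusted p 0.981 and 1.0).

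Levels were compared per kilobase of merged exon length in DMSO libraries. HNRNPA2B1 stood at 2466 ± 92.5 normalised counts per kb, HNRNPK at 2387 ± 85.9 and HNRNPF at 2330 ± 32.1 (SD, n = 3), neighbours that lie within their spread. HNRNPA1 followed at 1996 ± 52.4 and HNRNPAB at 1939 ± 49.9. The SR protein genes ran from SRSF2 at 1282 ± 20.4 and SRSF3 at 875 ± 17.0 to SRSF4 at 182 ± 1.79 and SRSF12 at 1.89 ± 0.702. Among the SF3 genes, SF3B4 at 1530 ± 61.4 was first and SF3A2 at 205 ± 22.0 last. The kinase genes were near the bottom, with CLK2 at 72.7 ± 4.74, CLK1 at 71.7 ± 1.49, CLK3 at 27.4 ± 0.610 and CLK4 at 17.0 ± 1.12, and CLK2 and CLK1 did not differ beyond their spread. The order depends on the length used. With the MANE Select transcript instead, HNRNPA2B1 (8573 per kb) and HNRNPK (4710) still led, while CLK3 reached 291 and lay above CLK1 at 199 and CLK2 at 124. Among the SF3 genes, SF3B6 (2059) and SF3B2 (2045) then lay above SF3B4 (1689). Among the SR protein genes, SRSF9 (2346) then lay above SRSF2 (2020), and SRSF4 reached 696.

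Ratios of reads within a library do not depend on scaling, and those of 2 pairs of relatives were chosen after their values were seen. CLK1 and CLK2 had been called in opposite directions in both comparisons, so that a shift of their ratio is no independent support. The ratios of CLK3 and of CLK4 to CLK2 were also taken. CLK3 over CLK2 was 2.58 to 5.20 with siMYOF, against 1.21 to 3.01 with siGL3, which overlapped. CLK4 over CLK2 was 0.895 to 1.29, against 0.437 to 0.576. Neither overlapped between WJ460 and DMSO. Per library, CLK1 had 3.74, 4.45 and 4.27 reads for each CLK2 read with siMYOF, against 1.39, 1.17 and 1.55 with siGL3. It had 4.44, 4.54 and 4.50 with WJ460, against 1.37, 1.28 and 1.51 with DMSO. In the early pair, where both kinases stood higher than in the late libraries of their group, it was 3.74 with siMYOF, against 1.39 with siGL3. HNRNPA1 had 0.261, 0.308 and 0.323 reads for each HNRNPA2B1 read with siMYOF, against 0.524, 0.638 and 0.665 with siGL3. With WJ460 the values were 0.387, 0.380 and 0.387, against 0.423, 0.435 and 0.431 with DMSO, so that this ratio was lower with either treatment although HNRNPA1 itself rose with WJ460.

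**Figure D4:**
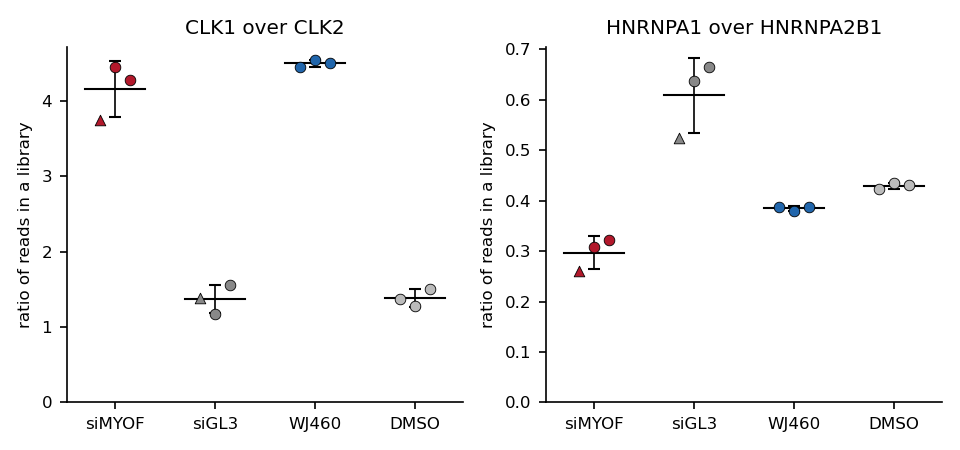
The number of CLK1 reads per CLK2 read (left) and of HNRNPA1 reads per HNRNPA2B1 read (right) is plotted for each library, with the group mean and SD, and triangles mark the early batch. The CLK1 ratio lies between 3.74 and 4.54 in the 6 siMYOF and WJ460 libraries and between 1.17 and 1.55 in the 6 siGL3 and DMSO libraries.

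Other parts of the splicing machinery were counted by lists of known genes. The shares called over all genes, given above, were 28.0% higher and 25.9% lower with siMYOF and 27.3% and 25.6% with WJ460, and counts under scaling by total reads stand beside each list. Under that scaling, of all 14720 genes tested, 3189 were higher and 4757 lower with siMYOF. With WJ460 these counts were 2639 and 5195. The 111 siMYOF calls in these lists rest on both batches, so that their shared sign in each (all 111) is no independent support. Of them, 95 passed with the early pair left out. Among the genes named in the lists that follow, the siMYOF calls of PRPF19, PLRG1, SREK1 and SMG5 did not, nor did that of MALAT1. U2 snRNP partners included 14 genes, of which 9 rose and 0 fell with siMYOF and likewise with WJ460 (median log2 fold change 0.33 and 0.50; 7 and 1 with siMYOF and 8 and 1 with WJ460 under scaling by total reads). Those with the smallest p were the large U2AF subunit gene U2AF2 (0.44 with siMYOF and 0.54 with WJ460), the helicase gene DHX15 (0.39 and 0.62), DNAJC8 (0.60 with siMYOF), DDX46 (0.64 with siMYOF) and SNRPB2 (0.79 with WJ460). In the list of Prp19 complex and catalytic step factors, 20 genes, 15 rose and 1 fell with siMYOF and 12 rose and 1 fell with WJ460. SYF2 (0.55 and 0.58), DHX38 (0.28 and 0.77), PLRG1 (0.19 and 0.68) and PRPF19 (0.17 and 0.62) were called in both, while BUD31 (0.63) and RBM22 (0.59) passed with siMYOF alone. Under scaling by total reads the counts were 10 higher and 2 lower with siMYOF and 8 higher and 5 lower with WJ460.

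The Sm and LSm list, the ring proteins that hold the spliceosomal small nuclear RNAs, differed between the treatments. Of its 14 genes, 3 rose and 7 fell with siMYOF (median -0.16; 2 higher and 7 lower under scaling by total reads), and 9 rose and 0 fell with WJ460 (median 0.27; 5 higher and 3 lower under scaling by total reads). The difference of effects called 0 genes with the higher knockdown effect and 9 with the lower, against 24.2% and 24.0% of all genes. SNRPD1 averaged 675 counts with siMYOF, against 2588 with siGL3 (log2 fold change -1.94, adjusted p = 1.71e-13), and 3158 with WJ460, against 2724 with DMSO (0.21, adjusted p = 0.00883). SNRPD3 (-1.06), LSM4 (-0.83) and SNRPD2 (-0.40) fell with siMYOF, while SNRPF (0.75), LSM5 (0.57) and SNRPD2 (0.45) rose with WJ460.

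In the U1 list of 8 genes, 5 rose and 2 fell with siMYOF and 3 rose and 1 fell with WJ460 (3 and 2, and 3 and 1, under scaling by total reads). PRPF39 rose with both (0.90 and 0.66), SNRPC was at -0.28 and 0.54, SNRPA fell with siMYOF (-0.63) and LUC7L rose with WJ460 (0.60). In the tri-snRNP list of 15, 5 rose and 3 fell with siMYOF and 7 rose and 3 fell with WJ460, but under scaling by total reads 2 rose in each and 3 and 6 fell, and in the late libraries alone 2 rose and 2 fell with siMYOF. PRPF31, mutated in retinal degeneration, fell by 1.24 with siMYOF, and TXNL4A by 0.84, while PRPF4 rose (0.70). With WJ460 PRPF6 (0.57) and PPIH (0.45) rose and SNRNP40 fell (-0.62).

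SR-related and speckle proteins, 15 genes, gave 11 higher and 1 lower with siMYOF, and 6 higher and 5 lower with WJ460. Under scaling by total reads these counts were 9 and 2 with siMYOF and 4 and 6 with WJ460, where the median was -0.05, against 0.11 without it. RBM39, the target of aryl sulfonamide degraders, had 0.82 and 0.42, TRA2A 0.57 and 0.30, TRA2B 0.28 and 0.63, SREK1 0.26 and 0.54, and BCLAF1 0.55 with siMYOF, all called. Kinases and importers of SR proteins outside the CLK family, 14 genes, gave 6 higher and 2 lower with siMYOF and 6 higher and 7 lower with WJ460 (5 and 3, and 5 and 8, under scaling by total reads). SRPK1, the cytoplasmic SR protein kinase, fell by 0.69 with siMYOF and did not pass with WJ460 (-0.04, adjusted p = 0.617). DYRK1B fell in both (-1.43 and -0.51), DYRK1A was at 0.75 with siMYOF and -0.41 with WJ460, and the cyclin gene CCNL1 rose in both (0.60 and 0.79).

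hnRNPs with other symbols, 21 genes, gave 7 in each direction with siMYOF and 10 higher and 5 lower with WJ460 (5 and 9, and 10 and 8, under scaling by total reads). TAF15, RALY, DAZAP1 and RBM3 all fell with siMYOF (-1.44, -1.14, -0.59 and -0.34) and rose with WJ460 (0.58, 0.44, 0.79 and 0.56), and PTBP3 rose with siMYOF (1.06). Of 12 tested tissue-type regulators, 5 rose and 1 fell with siMYOF and 3 rose and 8 fell with WJ460 (median 0.16 and -0.48). RBFOX2, MBNL2 and CELF1 were higher with siMYOF (0.57, 0.31 and 0.85) and lower with WJ460 (-0.82, -0.71 and -0.40), MBNL1 was higher with both (0.79 and 0.22), and RBM5 was lower with WJ460 (-0.65). Under scaling by total reads the counts of this list became 3 higher and 5 lower with siMYOF and 0 higher and 8 lower with WJ460.

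For the exon junction complex and nonsense-mediated decay, 15 genes, 6 rose and 4 fell with siMYOF and 9 rose and 2 fell with WJ460. Scaling by total reads turned the siMYOF balance to 5 higher and 6 lower (median -0.04, against 0.07 without it) and gave 8 higher and 4 lower with WJ460. UPF3B (1.10 and 0.67), MAGOH (0.39 and 0.99), SMG9 (0.46 and 0.46) and SMG5 (0.17 and 0.65) rose in both. Of 11 transcripts known to be held in the nucleus, 8 rose and 3 fell with siMYOF and 7 rose and 0 fell with WJ460 (5 and 3, and 6 and 0, under scaling by total reads; 7 and 1 with siMYOF in the late libraries). PNISR (0.92 and 1.17) and LUC7L3 (0.74 and 0.89) rose in both, and RSRP1 with siMYOF (0.96).

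The long nuclear RNAs went apart. The libraries were made with an mRNA kit, and how fully it captured these RNAs was not tested. NEAT1, the RNA of paraspeckles, had 6213, 5850 and 5909 counts with WJ460, against 1219, 1462 and 1171 with DMSO (log2 fold change 2.23, SE 0.10, adjusted p = 1.65e-10). It had 2274, 594 and 588 counts with siMYOF, against 2899, 1004 and 1202 with siGL3 (-0.71, adjusted p = 2.32e-05), lower within each batch. MALAT1, a speckle RNA, had 1962, 1894 and 1725 counts with WJ460, against 512, 521 and 447 with DMSO, without overlap (1.91, adjusted p = 1.36e-11). With siMYOF it had 1356, 504 and 503 counts, against 1906, 537 and 634 with siGL3 (-0.31, adjusted p = 0.00599), a fall that did not pass in the late libraries (-0.21, adjusted p = 0.0953).

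**Figure D5:**
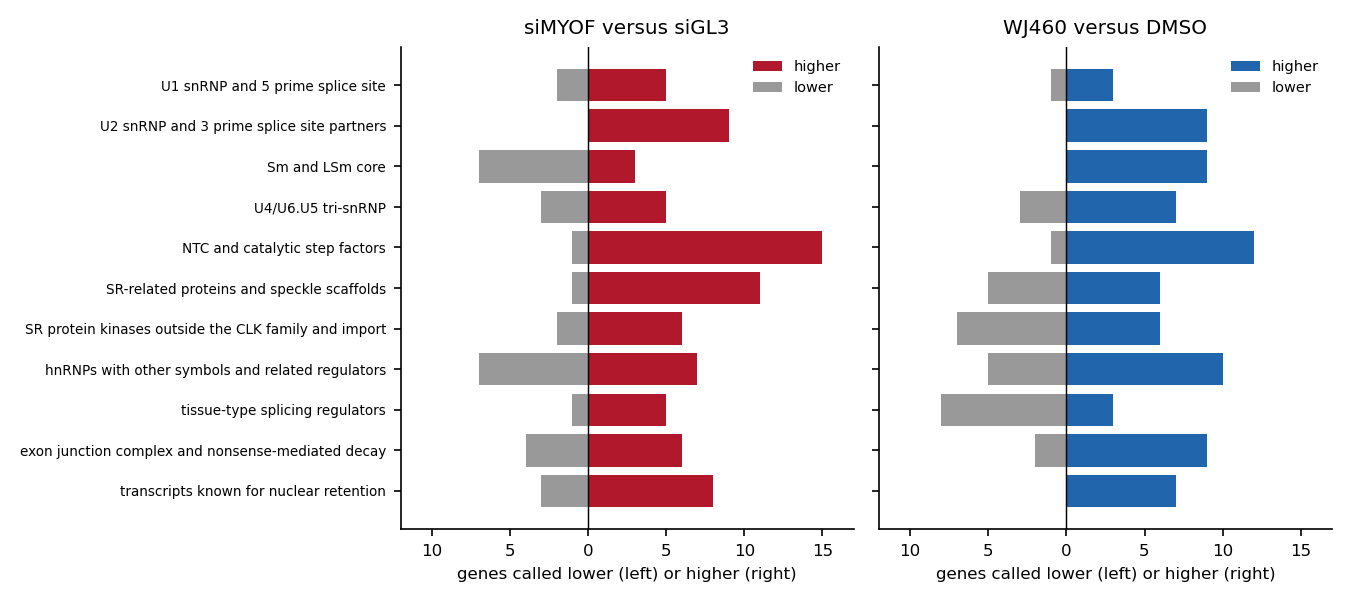
Bars give the number of genes of each list called higher (right) or lower (left) with siMYOF against siGL3 and with WJ460 against DMSO, at a limma adjusted p under 0.05. The Sm and LSm list has 7 lower genes with siMYOF and 0 with WJ460, and the tissue-type list 1 lower gene with siMYOF and 8 with WJ460.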

How the data were processed

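RNA from 12 PANC-1 libraries was measured by a stranded mRNA kit. The authors ran STAR and Salmon against GRCh38 and analysed the output in DESeq2, as their methods and the processing notes state. As deposited, the signal values are read counts per gene after division by a size factor, the same for all genes of a library, and whole reads were recovered for 100% of values within a tolerance of 0.001 reads. The main test was limma (3.58.1, in R 4.3.3) on log2(value + 1) with trended, robust spread, over 14720 genes with a mean of at least 5, with group and batch as terms, all 12 libraries in 1 fit (7 residual degrees of freedom) and Benjamini-Hochberg adjustment over all genes. Where no tool is named, an adjusted p is limma's. Fold changes on this scale understate changes of genes with few reads.

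Alternatives were pseudocounts of 0.5 and 5, no filter or a minimum of 20, TMM or total-read scaling, edgeR (4.0.16) and DESeq2 (1.42.0) on the recovered reads, no batch term, the late libraries alone, the replicate block, and each library left out. Leaving out either early library left that batch without a pair and gave the fold changes of the late libraries alone. These settings are therefore not separate checks. Adding pseudogene reads to their gene, and the MANE Select length, were chosen after seeing the data. The members, gene lists and tests were chosen with earlier results of these data known. Counts per library are given for the CLK genes, the 10 called members with the smallest p in each treatment and 4 in each of the other comparisons, and fold changes for other members and for up to 3 called genes per list and treatment, with MALAT1 and NEAT1. Of the listed genes, SUGP1 was not matched and MATR3, with more than 1 identifier, was left out. Some genes of the lists are counted but not reported here by name. Promoter windows came from a RefSeq table of GRCh38.p14 and gene annotation from GRCh38.

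Same-numbered siRNA libraries deviated together (r = 0.82, 0.53 and 0.60), so that replicate numbers were taken to pair them, a hint that rests on the data, and the late libraries also correlated across numbers (0.45 and 0.49). WJ460 and DMSO libraries of a number did not (0.03, -0.00 and 0.00).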

Additional observations from a re-analysis of the deposited data

Results flagged for a closer look

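The effects of siMYOF and of WJ460 on 4 members, those with the smallest p among the called differences of effects, differed by the interaction test of limma. The siMYOF effect minus the WJ460 effect was 1.16 on the log2 scale for HNRNPDL, -1.04 for HNRNPA1, -1.04 for SF3B6 and -0.88 for HNRNPH3. These calls held under each of the 24 alternatives tried, not all of which are separate checks. The controls of the effects differed as well. HNRNPA1 and SF3B6 were higher in siGL3 than in DMSO (0.34 and 0.31), and HNRNPDL and HNRNPH3 lower.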

How the results depend on the processing

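Calls that held under all 24 alternatives numbered 18 of 32 for siMYOF, 17 of 33 for WJ460 and 12 of 21 for the difference of effects, and under 23 alternatives 4 of 19 for siGL3 against DMSO. Setting aside the fit without the batch term, these were 25, 22, 20 and 12. The 24 alternatives are not separate checks, since leaving out either early library repeats the late-only fit and adding pseudogene reads changed no member count. The share of all called genes that held was not taken, so that these counts are no result particular to the members. Without the batch term, 17 members were higher and 2 lower with siMYOF, 17 and 1 with WJ460 (5140 genes called), 5 and 7 for the difference (4309 genes) and 2 and 2 for siGL3 (1331 genes). In that fit CLK2 had 0.0010 for siGL3 minus DMSO, against -0.43 with the term. That fit ended 13 siMYOF calls, of CLK2, CLK4, SF3A3, SF3B2, SF3B3, SF3B6, SRSF1, SRSF5, SRSF9, SRSF10, SRSF11, HNRNPAB and HNRNPUL1. With WJ460 it ended 15, of CLK2, CLK4, SF3A2, SF3A3, SF3B2, SF3B3, SF3B4, SRSF1, SRSF2, SRSF4, HNRNPA3, HNRNPH1, HNRNPK, HNRNPUL1 and HNRNPUL2. For the difference it ended 9, of CLK3, SF3A3, SF3B3, SRSF1, SRSF5, SRSF11, HNRNPAB, HNRNPH1 and HNRNPUL1. Without the term the gap between early and late libraries of a group enters the spread. Scaling by total reads gave 18 higher and 11 lower members with WJ460, 13 higher for the difference, and 2 higher and 23 lower for siGL3. Over all genes that scaling called 2639 higher and 5195 lower with WJ460, 3864 and 3223 for the difference, and 1764 and 2974 for siGL3. The cause of these shifts was not tested. Leaving out a library gave 21 to 26 higher and 5 to 7 lower members with siMYOF, 21 to 29 and 4 to 5 with WJ460, 7 to 9 and 13 to 15 for the difference, and 2 to 6 and 10 to 16 for siGL3 against DMSO, where the count of higher members was 2 without siGL3 replicate 3 or any 1 DMSO replicate. The replicate block ended the siMYOF call of SRSF1 (adjusted p = 0.0522) and no other member call. Calls near the threshold are limited by 3 libraries per group, and the batch by 1 early library in each siRNA group.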
